A study of Homo sapiens with 6 samples.

Results

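SRGN, NCAN, HS3ST1 and B4GALNT2 encode proteoglycan core proteins and enzymes that act on glycans. They were taken by symbol from a table of 459 genes that the authors had called as changed by fulvic acid (FA), so 4 of 459 genes are described here. The 3 treated libraries (FA 1, 2 and 3) came from SK-OV-3 cells given FA at 100 µg/ml for 48 h, and the 3 control libraries (control 1, 2 and 3) from SK-OV-3 cells without it. SK-OV-3 is an established human ovarian cancer cell line, labelled wild type in both groups, and FA is a water-soluble fraction of humic substances. Polyadenylated RNA was sequenced in bulk, so fewer cells that express a gene and less of its RNA per cell cannot be told apart. Whether replicate libraries stem from different cultures is not stated in the labels, and each p-value therefore reflects library-to-library spread that may be technical only.

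A proteoglycan is a core protein that carries long sulfated sugar chains, called glycosaminoglycans, on serine residues. Enzymes of the Golgi build these chains and then place sulfate groups along them, and the pattern of sulfate decides which proteins the chain binds. Other Golgi enzymes finish the short glycans of glycoproteins and glycolipids with terminal sugars, some of which are blood group antigens. Among the genes described here are 2 core proteins (SRGN and NCAN), a sulfotransferase of heparan sulfate (HS3ST1) and a transferase of a terminal sugar (B4GALNT2).

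SRGN, NCAN and HS3ST1 were lower in FA-treated cells and B4GALNT2 was higher. By the authors' limits 74.5% of the table was lower and 25.5% higher with FA, and every gene of the table had been called on this same contrast. The direction and the call of these 4 genes are therefore a description, and their tests measure only the size of a change against the spread between libraries. Levels are given as FPKM, which divides the fragments of a gene by its length and by the depth of the library. Changes are log2 fold changes of FA over control, fitted to the read counts of all 459 genes with edgeR's quasi-likelihood test and adjusted over all 459 (Benjamini-Hochberg, threshold 0.05). That fit called 100% of the table, and in 99.8% of its genes the FPKM values of both groups did not overlap.

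Implied depth was 39900000 to 50900000 fragments in the FA libraries and 43500000 to 48800000 in the control libraries. The control libraries differed among themselves by base composition. The deviation of each library from its group mean was set against GC content over 371 genes of the table, which are not independent replicates. Spearman's rho ran from -0.25 to 0.18 in the FA libraries, against -0.76 in control 1, 0.37 in control 2 and 0.67 in control 3. Deviations from a group mean are linked within the group, so these values do not single out 1 library. The part of these differences in the results was not tested. The longest transcript has a GC content of 38.1% in SRGN, 44.5% in B4GALNT2, 47.6% in HS3ST1 and 56.1% in NCAN, with a table median of 51.9%. Without control 1 the log2 fold changes were -3.27 for SRGN, -1.08 for NCAN, -1.90 for HS3ST1 and 2.05 for B4GALNT2. Without control 3 they were -3.50, -1.20, -1.96 and 1.99 in the same order. Every gene of the table is a called one, so the identity of the cells could not be checked from it: none of 10 markers of ovarian carcinoma epithelium was in the table, which says nothing of their expression. Of 48 markers of this and other cell types, TUBB3 (neurons, and many tumour cells) and COL1A1 (fibroblasts) were in the table, both lower with FA, at 8.52 ± 1.7 against 24.7 ± 4.7 FPKM and at 0.214 ± 0.093 against 0.469 ± 0.080 FPKM (SD, n = 3 each). In TUBB3 35.8% of the exonic bases are shared with AC092143.1, so its reads may be shared. The FPKM of COL1A1 assumed a length of 3158 nucleotides in FA 1, against 6802 in FA 2 and 6712 in FA 3, which raised its FPKM in FA 1. The length was 5891, 6771 and 6757 in control 1, 2 and 3, which raised it in control 1 to a lesser degree. None of the 11 leukocyte and mast cell markers and none of the 6 colon markers was among the 459.

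**Figure D1:**
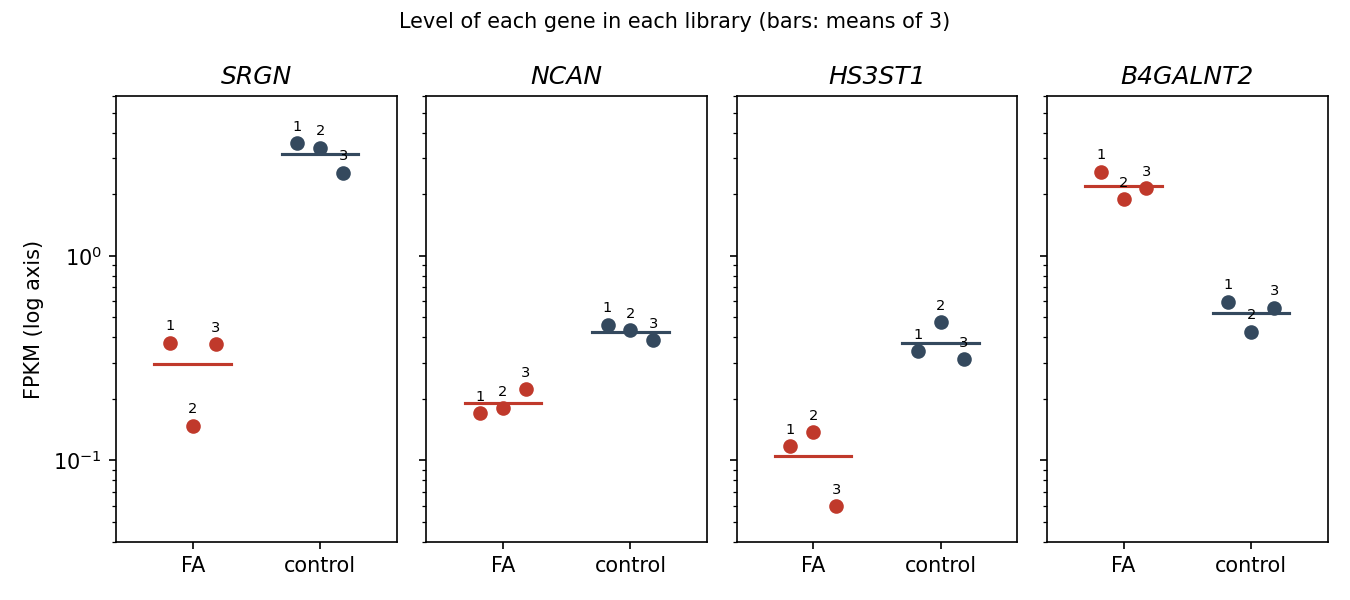
FPKM of SRGN, NCAN, HS3ST1 and B4GALNT2 in each library on a log axis, with FA libraries left and control libraries right. Points carry the replicate number and bars are means of 3 libraries. SRGN lies between 0.148 and 0.376 FPKM with FA and between 2.55 and 3.54 in control, and B4GALNT2 between 1.89 and 2.58 with FA and between 0.425 and 0.598 in control.

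SRGN encodes serglycin, the core protein of the proteoglycan that packs charged mediators into secretory granules of blood cells and that several tumour cell types secrete. The gene (ENSG00000122862) lies on chromosome 10 of GRCh38, positions 69088106 to 69104811 on the plus strand, and its longest transcript has 3 exons and 1208 nucleotides, of which 474 are coding. SRGN had 0.376, 0.148 and 0.370 FPKM in FA 1, 2 and 3, against 3.54, 3.36 and 2.55 FPKM in control 1, 2 and 3. The FA libraries all lay far below the controls, and the lowest control was 6.79 times the highest FA library. Behind these levels stood 19, 8 and 23 reads in the FA libraries, against 187, 199 and 146 in the control libraries.

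The mean level of SRGN was 0.298 ± 0.13 FPKM with FA and 3.15 ± 0.53 FPKM in control (SD, n = 3 each). The log2 fold change was -3.36 (SE 0.32, 95% interval -4.06 to -2.66; edgeR adjusted p = 1.6e-06), a level 10.3-fold lower with FA. The authors' deposited table gives -3.31 with a false discovery rate (FDR) of 8.3e-17. By the authors' values SRGN ranked 15 of the 342 lower genes by size of change. FA 2 was the low library among the treated: its 8 reads have a 95% Poisson interval of 3.45 to 15.8, which covers counting error only and overlaps those of FA 1 (11.4 to 29.7) and FA 3 (14.6 to 34.5). Without FA 2 the log2 fold change was -3.04. SRGN varied more between libraries than counting error gives. Its coefficient of variation was 43.6% in FA libraries (counting alone 24.5%) and 16.8% in control libraries (counting alone 7.51%).

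NCAN encodes neurocan, a chondroitin sulfate proteoglycan of the lectican family that binds hyaluronan and is best known from the matrix of the brain. It lies on chromosome 19, positions 19211973 to 19252233 on the plus strand (ENSG00000130287), with 15 exons and 6387 nucleotides in its longest transcript. NCAN had 0.170, 0.180 and 0.223 FPKM in FA 1, 2 and 3, against 0.459, 0.433 and 0.386 FPKM in control 1, 2 and 3. The groups did not overlap, with a gap of 1.73-fold between the highest FA and the lowest control library. Read counts were 44, 52 and 73 with FA, against 128, 135 and 117 in control.

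NCAN averaged 0.191 ± 0.028 FPKM in FA libraries and 0.426 ± 0.037 FPKM in control libraries (SD, n = 3 each). Its log2 fold change was -1.14 (SE 0.22, 95% interval -1.62 to -0.66; edgeR adjusted p = 0.00029), the smallest of the 4 changes in absolute size. The authors' deposited table gives -1.08 with an FDR of 0.00060, near the limit of 1 at which the table ends. The spread of NCAN between control libraries, a coefficient of variation of 8.64%, was close to the 8.89% that counting error alone gives at this depth. In the FA libraries these values were 14.9% and 13.3%.

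HS3ST1 encodes heparan sulfate glucosamine 3-O-sulfotransferase 1, which adds the rare 3-O-sulfate that completes the antithrombin-binding site of heparan sulfate. The gene (ENSG00000002587) is on chromosome 4, positions 11393150 to 11429765 on the minus strand. Its longest transcript has 2 exons and 8031 nucleotides, of which only 921 are coding. HS3ST1 had 0.117, 0.137 and 0.0597 FPKM in FA 1, 2 and 3, against 0.342, 0.473 and 0.313 FPKM in control 1, 2 and 3. Every FA library was below every control library, FA 3 was the lowest and control 2 the highest. The reads behind them numbered 38, 50 and 25 with FA, against 120, 186 and 120 in control.

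HS3ST1 averaged 0.105 ± 0.040 FPKM with FA and 0.376 ± 0.085 FPKM in control (SD, n = 3 each). The log2 fold change was -1.84 (SE 0.31, 95% interval -2.50 to -1.17; edgeR adjusted p = 8.6e-05), which is 3.58-fold lower with FA. The authors' deposited table gives -1.78 with an FDR of 3.5e-05. HS3ST1 varied more between libraries than counting error gives, with a coefficient of variation of 38.5% in FA libraries (counting alone 16.3%) and 22.7% in control libraries (counting alone 8.39%). Leaving out FA 3 gave -1.55 and leaving out control 2 gave -1.64, the values nearest to 0 when 1 library was left out.

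B4GALNT2 encodes the transferase that adds N-acetylgalactosamine to a galactose already capped with sialic acid and so makes the Sda (Cad) blood group antigen, an enzyme known above all from normal colon. The gene (ENSG00000167080) lies on chromosome 17, positions 49132460 to 49176840 on the plus strand. Among the 3 annotated transcripts, the longest has 11 exons and 8657 nucleotides with 1518 coding, and the shortest has 1819 nucleotides. Of the 4 genes, B4GALNT2 was the 1 that rose. RefSeq gives the gene 2 start sites in GRCh38.p14, and the 250 bases before each are shown on the plus strand, 5′ to 3′, since the files do not tell from which start the reads of the higher level came. Capitals mark GCGTG, the core of the binding element of the aryl hydrocarbon receptor (AHR), the factor that controls CYP1A1, the gene in the title of the study.
B4GALNT2 upstream start, chr17:49132210-49132459: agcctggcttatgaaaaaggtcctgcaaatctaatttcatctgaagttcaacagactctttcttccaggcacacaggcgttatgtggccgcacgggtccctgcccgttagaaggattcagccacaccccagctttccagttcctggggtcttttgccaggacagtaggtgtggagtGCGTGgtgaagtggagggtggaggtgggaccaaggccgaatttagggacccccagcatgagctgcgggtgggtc
B4GALNT2 downstream start, chr17:49132519-49132768: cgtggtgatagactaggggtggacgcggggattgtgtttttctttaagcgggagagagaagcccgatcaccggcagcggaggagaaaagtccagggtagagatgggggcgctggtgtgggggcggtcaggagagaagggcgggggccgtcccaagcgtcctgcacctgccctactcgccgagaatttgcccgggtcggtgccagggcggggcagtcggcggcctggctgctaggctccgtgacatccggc
The window of the upstream start, from 250 bases before to 50 after it, holds GCGTG once on the gene's own strand, beginning 74 bases before the start. That of the downstream start holds it on neither strand. HS3ST1, which was lower with FA, also has it once, 240 bases before its RefSeq start, but all 250 bases before that start lie in an annotated exon of GENCODE release 29, since the gene begins further upstream there. GCGTG occurs on either strand in 36.5% of 35116 human promoter windows of this length, so a match is a description of the letters and not of a bound site. The cAMP response element TGACGTCA, present in 1.85% of windows, was in none of these 3 windows. No window of SRGN or NCAN was examined, so nothing is said of their promoters.

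B4GALNT2 had 2.58, 1.89 and 2.14 FPKM in FA 1, 2 and 3, against 0.598, 0.425 and 0.556 FPKM in control 1, 2 and 3. All FA libraries lay above all control libraries, by at least 3.16-fold. The coefficient of variation was 15.9% in FA libraries (counting alone 3.56%) and 17.1% in control libraries (counting alone 6.90%), so B4GALNT2 too varied more than counting error gives. Its reads numbered 726, 702 and 942 with FA and 225, 176 and 229 in control, the most of the 4 genes in the FA libraries. The mean was 2.20 ± 0.35 FPKM with FA and 0.526 ± 0.090 FPKM in control (SD, n = 3 each). The fitted log2 fold change was 1.95 (SE 0.18, 95% interval 1.56 to 2.33; edgeR adjusted p = 1.2e-06), or 3.85-fold higher with FA. The authors' deposited table gives 2.01 with an FDR of 1.6e-27, which ranks B4GALNT2 at 16 of the 117 higher genes.

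For B4GALNT2 the 2 deposited units did not run in parallel. Reads divided by FPKM and by implied depth give the gene length the authors' FPKM assumed. This length was 7054 nucleotides in FA 1, 8323 in FA 2 and 8656 in FA 3, against 8660, 8476 and 8687 in control 1, 2 and 3. Lengths in most libraries were thus near that of the longest transcript, and FA 1 had a shorter one, which raised its FPKM relative to its reads. Scaled by implied depth alone, FA 1 had 18.2 CPM, FA 2 15.7 CPM and FA 3 18.5 CPM, against 5.18, 3.60 and 4.83 CPM in control 1, 2 and 3, so that FA 1 no longer stood highest. For SRGN the implied lengths were 1212 to 1268 nucleotides with FA and 1208 to 1214 in control. Those of NCAN (6427 to 6500 with FA, 6386 to 6414 in control) and HS3ST1 (8108 to 8225 with FA, 8052 to 8093 in control) were as even. None of the exonic bases of the 4 genes is shared with another gene in GENCODE release 29.

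**Figure D2:**
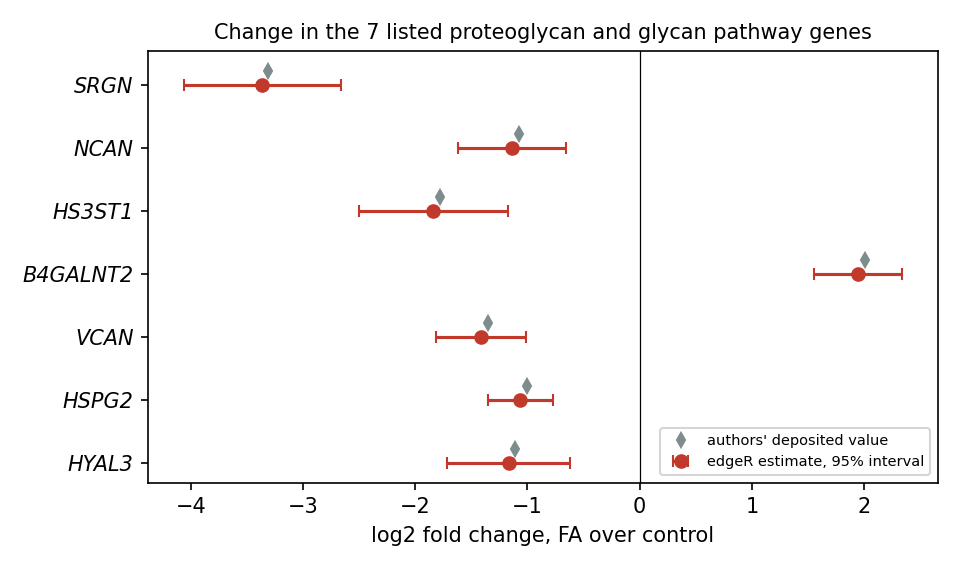
Log2 fold change of FA over control for the 4 genes and for VCAN, HSPG2 and HYAL3, the other genes of the pathway lists in the table. Circles are edgeR estimates with 95% intervals and diamonds the values of the authors' deposited table. B4GALNT2 at 1.95 is right of 0, and the other 6 lie between -3.36 and -1.06. Not drawn are the values with scaling computed over the called genes alone, where NCAN, HSPG2 and HYAL3 were above 0.

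Among the lower genes the changes were not of 1 size. The 95% interval of SRGN (-4.06 to -2.66) lies below those of HS3ST1 (-2.50 to -1.17) and NCAN (-1.62 to -0.66), while those of HS3ST1 and NCAN overlap. A ratio of 2 genes within a library is free of the scaling between libraries. SRGN stood at 2.21, 0.822 and 1.66 times the FPKM of NCAN in FA 1, 2 and 3, against 7.72, 7.77 and 6.60 times in control 1, 2 and 3. The libraries of both groups are separate here: the ratio was lower in each treated library than in any control, and in FA 2 SRGN was below NCAN. NCAN stood at 1.44, 1.31 and 3.74 times the FPKM of HS3ST1 with FA, against 1.34, 0.914 and 1.24 times in control, and these ranges overlap.

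The order of the 4 genes by FPKM also differed between groups. In FA libraries B4GALNT2 was highest, at 7.40 times the mean level of SRGN and above it in 3 of 3 libraries. SRGN and NCAN came next and overlapped, SRGN being higher in 2 of 3 libraries, and HS3ST1 was below NCAN in 3 of 3 without overlap. In control libraries SRGN was highest, at 5.99 times the mean of B4GALNT2 and above it in 3 of 3. There, B4GALNT2, NCAN and HS3ST1 followed with overlapping values. The FPKM of SRGN divided by that of B4GALNT2 was 0.146, 0.0783 and 0.173 in FA 1, 2 and 3, against 5.93, 7.91 and 4.59 in control 1, 2 and 3. This exchange of places follows from a lower and a higher gene being set together, and gets no test.

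**Figure D3:**
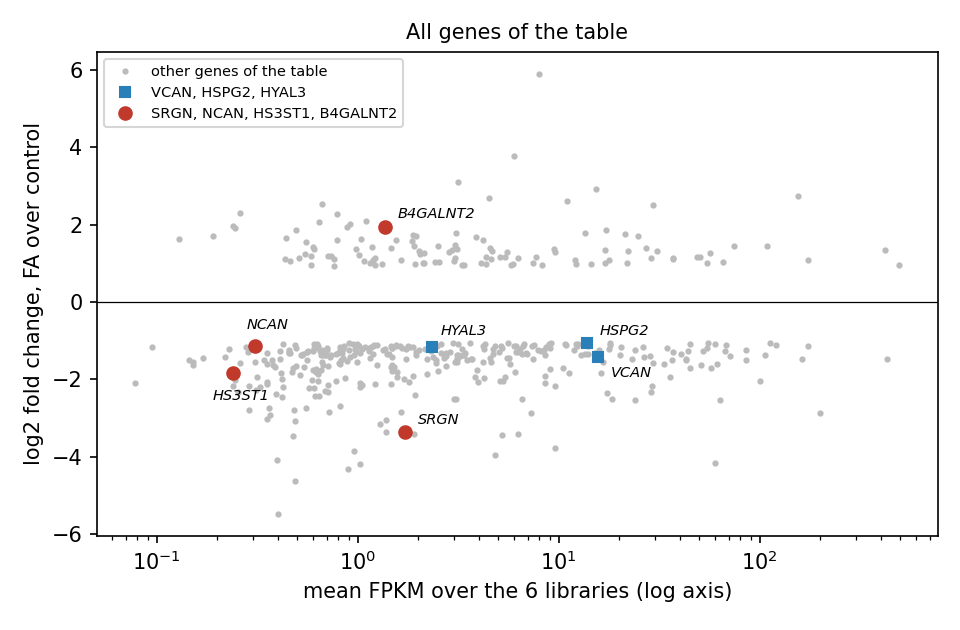
Log2 fold change of FA over control against the mean FPKM over the 6 libraries (log axis) for all 459 genes. The 4 genes described here are red circles, and VCAN, HSPG2 and HYAL3 blue squares. NCAN and HS3ST1 sit at the low end of expression and SRGN low among the decreases.

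NCAN and HS3ST1 were among the lowest genes of the table and the others near its middle. By mean FPKM over the 6 libraries SRGN ranked 249 of 459, B4GALNT2 274, NCAN 437 and HS3ST1 448. The median gene of the table had 1.48 FPKM with FA and 2.34 FPKM in control. B4GALNT2 in FA libraries and SRGN in control libraries exceeded that median, and NCAN and HS3ST1 were below it in both groups.

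For proteoglycan and glycan metabolism 6 lists of 200 genes in all were used, and they are not complete. Related genes such as GALNT10, GALNT14, LFNG and HAPLN3 are in the table but outside the lists, and are not described here. Of the 200 list genes, 7 were in the table: the 4 genes described above and 3 others, VCAN, HSPG2 and HYAL3, which were all lower. Over the 7, of which the 4 make up most, 1 was higher and 6 lower, where 74.5% of all 459 genes were lower. The authors' deposited table gives the 7 a median log2 fold change of -1.11, against -1.22 over all 459 genes. The list of 47 core proteins had 4 members in the table, all lower: SRGN, NCAN, VCAN and HSPG2. In a table where most genes are lower, 4 lower genes are a description and not a result about the list. Of 20 enzymes that modify heparan sulfate HS3ST1 was in the table, of 58 terminal transferases B4GALNT2, and of 26 genes of glycosaminoglycan breakdown HYAL3. None of the 26 genes that start and lengthen glycosaminoglycan chains was listed, nor any of 23 for the other sulfation steps and the supply of sulfate. A gene outside the table was not analysed here, and its absence says nothing of its level.

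VCAN encodes versican, a lectican like NCAN that is common in the stroma of tumours. It had 8.51, 8.73 and 8.73 FPKM in FA 1, 2 and 3, against 30.3, 20.9 and 16.9 FPKM in control 1, 2 and 3. The treated libraries were almost alike, and the controls were spread, control 1 highest. The log2 fold change was -1.41 (SE 0.18; edgeR adjusted p = 1.4e-05). Both lecticans were thus lower with FA, from very different levels: VCAN averaged 8.65 ± 0.13 FPKM with FA and 22.7 ± 6.9 FPKM in control, far above NCAN in each group (SD, n = 3 each).

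HSPG2 encodes perlecan, the large heparan sulfate proteoglycan of basement membranes. It had 9.42, 8.20 and 9.29 FPKM in FA libraries, against 16.2, 20.2 and 20.0 FPKM in control libraries. All treated libraries were lower, and the log2 fold change was -1.06 (SE 0.13; edgeR adjusted p = 9.6e-06). HYAL3, a member of the hyaluronidase family, had 1.36, 1.18 and 1.51 FPKM in FA libraries, against 2.59, 3.00 and 4.40 FPKM in control libraries. Its log2 fold change was -1.17 (SE 0.25; edgeR adjusted p = 0.00064), and -0.84 without control 3. The gene length its FPKM assumed was 1746, 1941 and 1610 nucleotides in FA 1, 2 and 3. In control 1, 2 and 3 it was 1422, 1596 and 1697. The lowest control was 1.71 times the highest FA library in FPKM, and 1.51 times when scaled by implied depth alone. Of the exonic bases, 3.05% in VCAN, 11.7% in HSPG2 and 14.3% in HYAL3 are shared with neighbouring genes. The neighbours of VCAN and HSPG2 lie on the opposite strand, and how strand was treated in counting is not stated. Those of HYAL3 lie on the same strand. Some reads of VCAN, HSPG2 and HYAL3 may therefore belong to their neighbours.

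Scaling by the column totals, DESeq2 with the recovered depth and limma on FPKM all kept NCAN, HS3ST1, VCAN, HSPG2 and HYAL3 lower and past the threshold. Scaling factors computed over the 459 called genes alone, most of them lower, by construction centre the typical listed gene. They moved the log2 fold changes upwards by a median of 1.24 with TMM and of 1.23 with DESeq2 size factors, so decreases smaller than that shift had to change sign. SRGN was at -2.13 with TMM and -2.14 with DESeq2, and B4GALNT2 at 3.19 and 3.18, all past the threshold. HS3ST1 was at -0.60 with TMM and -0.61 with DESeq2 and no longer passed (adjusted p = 0.16 by edgeR and 0.16 by DESeq2), while NCAN (0.11 and 0.10), HSPG2 (0.18 and 0.17) and HYAL3 (0.087 and 0.078) changed sign without passing. VCAN was at -0.18 with both and did not pass. Depth recovered from the deposited units does not use the called genes' balance and gives the values above.

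**Figure D4:**
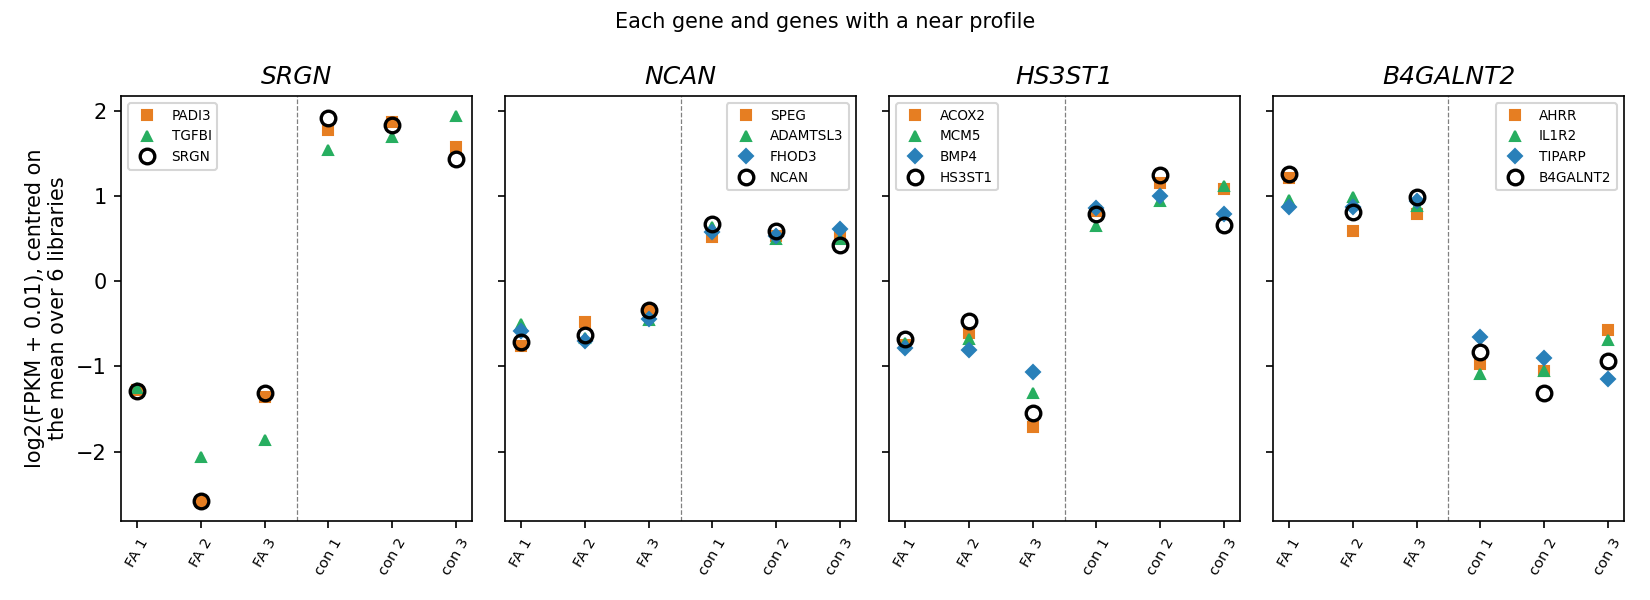
Profiles of the 4 genes (open black circles) and of the genes named as near to each (coloured symbols) over the 6 libraries, as log2(FPKM + 0.01) centred on each gene's mean, with FA libraries left of the dashed line and control (con) right. SRGN and PADI3 lie almost on each other, at a distance of 0.206.

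The genes with the most similar profiles were found by Euclidean distance over the 6 libraries, among genes that carry an Ensembl identifier and average 50 counts or more. Nearest to SRGN was PADI3, a peptidylarginine deiminase, at 0.206, against a median distance of 2.93 over 370 genes. It had 0.0752 ± 0.036 FPKM with FA and 0.876 ± 0.090 FPKM in control (SD, n = 3 each). Like SRGN, PADI3 was lowest in FA 2. TGFBI, a secreted matrix protein, lay at 0.995 and had 1.06 ± 0.33 FPKM with FA and 11.4 ± 1.6 FPKM in control (SD, n = 3 each).

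Nearest to NCAN were SPEG, a muscle-type kinase (0.246), ADAMTSL3, a secreted ADAMTS-like matrix protein (0.273) and FHOD3, a formin that acts on actin (0.284). The median distance from NCAN was 0.979, so profiles near that of NCAN were common in the table. Nearest to HS3ST1 were ACOX2, a peroxisomal oxidase (0.493), MCM5, a subunit of the replicative helicase (0.649), and BMP4, a secreted growth factor (0.666), against a median of 1.33. ACOX2 had 0.684 ± 0.25 FPKM with FA and 2.72 ± 0.32 FPKM in control (SD, n = 3 each).

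Nearest to B4GALNT2 were AHRR, the repressor of AHR (0.559), IL1R2, the decoy receptor of interleukin-1 (0.574), and TIPARP, an ADP-ribosyltransferase (0.634), against a median of 4.13. Of all 459 genes 342 were lower with FA, so that median is mostly a distance to genes that changed the other way. A higher gene with a change of similar size would lie under it. AHRR had 2.99 ± 0.68 FPKM with FA and 0.892 ± 0.17 FPKM in control, IL1R2 27.1 ± 0.99 FPKM with FA and 7.34 ± 1.2 FPKM in control, and TIPARP 20.9 ± 0.52 FPKM with FA and 6.06 ± 1.0 FPKM in control (SD, n = 3 each). Fitted changes were 1.71 for AHRR, 1.86 for IL1R2 and 1.78 for TIPARP on the log2 scale, beside 1.95 for B4GALNT2 (edgeR adjusted p at most 1.9e-06 for each). Distances were taken on FPKM, which for B4GALNT2 in FA 1 was raised by the shorter implied length. Whether the order of these genes depends on that was not tested. A short distance is mostly a likeness in size of change over 6 libraries of 2 groups. All 459 genes were selected for differing between those groups.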

How the data were processed

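The 6 libraries and their groups were taken from the sample titles. The deposited table lists 459 genes with, per the file headers, counts and FPKM values for each library. The counts were taken to be unscaled, which the headers do not state. It also gives the FDR, a p-value adjusted by the authors, and a log2 fold change from the authors' own test of FA against control. Per the labels' protocols, mRNA was enriched by its poly(A) tail. GRCh38 is named in the submitters' processing notes. Which aligner, counter and test were used is not given in the sources used here. Every deposited log2 fold change is at least 1.00 in absolute size and every FDR at most 0.00977, so called genes alone were available.

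Relative depth was recovered from counts divided by FPKM over the 180 genes that reach 200 counts in each library, and its scale from 16 genes with a single transcript. Counts of all 459 genes were fitted with edgeR 4.0.16 (R 4.3.3) with group as the only term and library sizes set to that depth. Standard errors were taken as the size of the log2 fold change over the root of the F statistic. The fit was tested on simulated counts in which 200 genes changed, as many up as down, at a known depth. That test therefore does not bear on the scaling between libraries. DESeq2 1.42.0 and limma 3.58.1 served as alternatives, as did other scalings, a filter on low counts, the replicate number as a block and leaving out each library. Annotation is GENCODE release 29, in which all 399 Ensembl identifiers were found, and promoter windows are RefSeq's. The genes named are the 4 described, every pathway-list gene in the table and the 3 nearest profiles of each (pseudocount 0.01 FPKM, mean of at least 50 counts), of which 1 is not reported here. The genes and lists were chosen with earlier results of these data known.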

Additional observations from a re-analysis of the deposited data

How the results depend on the processing

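SRGN stayed lower and B4GALNT2 higher past the threshold in all alternatives run. Leaving out 1 library gave -3.56 to -3.04 for SRGN, -1.26 to -1.06 for NCAN, -2.09 to -1.55 for HS3ST1 and 1.80 to 2.05 for B4GALNT2, all past the threshold. With TMM over the listed genes NCAN was at 0.11 and HS3ST1 at -0.60, with 81 genes of the table and 1 pathway gene lower. With DESeq2 size factors over the listed genes these were 0.10, -0.61, 87 and 1. Both settings centre the listed genes by construction. Same-numbered libraries did not deviate together (correlations 0.014, 0.11 and -0.16 for numbers 1, 2 and 3). Differently numbered libraries gave -0.17 to 0.18. The genes were selected for the contrast and the controls differed by base composition, so this cannot tell whether the numbers pair the samples. With the replicate block the values were -3.37 for SRGN, -1.14 for NCAN, -1.87 for HS3ST1 and 1.96 for B4GALNT2, and 117 genes were higher and 342 lower as without it. With limma on log2(FPKM + 0.1) the low genes moved towards 0, HS3ST1 to -1.22 and NCAN to -0.86, since the pseudocount is near their level. Depth limits SRGN most: 50 reads in all with FA stand behind its level, against 532 in control.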
